A study of Mus musculus with 9 samples.

Results

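Brain libraries of Huntington's disease mice that had received a WNT5B virus were compared with brain libraries of wild-type mice, to see which genes ended near the wild-type level and which remained apart from it. The comparison takes 6 of the 9 libraries of the series, 3 per group, and 15078 of 21853 protein-coding genes passed the filter on low values. The disease model is N171-82Q, a mouse line that expresses an N-terminal fragment of human huntingtin with an expanded glutamine tract from the prion promoter in neurons of many brain regions. The WNT5B group ("WNT5B libraries") comprised HD mice given pAAV-GFAP(pro)-WNT5B-P2A-mCherry, an adeno-associated virus that expresses WNT5B and the red fluorescent protein mCherry from the GFAP promoter of astrocytes. The wild-type group ("WT libraries") received pAAV-GFAP(pro)-Control-mCherry, which carries mCherry alone. The 3 libraries of HD mice with that same control virus ("HD libraries") were set beside them, so genotype and virus differ together between the WNT5B and WT groups. The series text names the striatum as the injected site, while the sample labels say only brain. The labels give neither age nor sex and do not tie libraries to animals, so p-values measure only the spread between libraries, which may be technical.

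WNT5B is a secreted ligand that acts mainly through non-canonical Wnt signalling, in which Frizzled, ROR and RYK receptors act on cell polarity and calcium rather than on beta-catenin. Calcium released in that branch activates the phosphatase calcineurin, which sends NFAT transcription factors such as NFATc2 into the nucleus. MMP14, a membrane-anchored metalloproteinase that cleaves collagen and other matrix proteins, is the effector that the title of the study places downstream of WNT5B and NFATc2 in astrocytes. In Huntington's disease the projection neurons of the striatum lose signalling genes early, and astrocytes, microglia and oligodendrocytes change with them.

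The files hold normalized read counts, and the fit used log2(value + 3), so every "log2 difference" is WNT5B minus WT on that scale unless stated otherwise. Values written with ± are means with their SD over n = 3 libraries. The 3 WNT5B libraries stood apart from the other 6 in several ways that touch all results here. They held 37.3 to 52.1 M reads against 67.8 to 77.8 M in WT libraries, and the 100 most abundant genes took 23.3 to 24.2 percent of their summed values against 15.3 to 15.4 percent. Genes with 1 to 9 reads numbered 180 to 277 in WNT5B, 1700 to 1754 in WT and 1763 to 1861 in HD libraries. Between WNT5B replicates the log2 values of genes averaging 100 or more had a median SD of 0.228, compared with 0.0387 between WT replicates. The tissue label was checked against striatal markers. Drd1 and Drd2, the dopamine receptors of striatal projection neurons, averaged 18193 and 17548 in WT and 15143 and 18045 in WNT5B libraries, so both groups carried abundant striatal transcripts. The full list of striatal projection neuron genes, however, took 2.61 to 2.63 percent of all summed values in WT libraries. It took 2.13 to 2.14 percent in HD and 1.40 to 1.43 percent in WNT5B libraries.

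The gene supplied by the virus was examined first. Wnt5b (chromosome 6, 119432531 to 119544347, mm10) had 74.6, 63.8 and 57.7 normalized counts in the 3 WT libraries, 63.8, 44.2 and 49.3 in the HD libraries and 184, 22.5 and 212 in the WNT5B libraries. WNT5B libraries 1 and 3 were above every control library and library 2 was below all of them, so the groups overlapped (log2 difference 0.57, SE 0.85, limma adjusted p = 0.56). The labels do not say which species' WNT5B the virus carries, so this count checks the virus label only as far as viral transcripts align to the mouse gene. Mmp14 (chromosome 14, 54431612 to 54445364) measured 686, 720.4 and 686 in WT, 759.8, 726 and 824 in HD and 1451, 1512 and 1844 in WNT5B libraries. All 3 WNT5B libraries lay above all controls, and Mmp14 rose (log2 difference 1.19, SE 0.13, limma adjusted p = 0.00019), with a difference of 1.21 once the length trend described next was removed. Nfatc2 measured 2576, 2718 and 2534 in WT, 1779, 1752 and 1791 in HD and 1295, 1677 and 2464 in WNT5B libraries. Its WNT5B values were all below WT but ranged widely, and the difference of -0.58 (SE 0.22) had a limma adjusted p = 0.056. With the trend removed its difference was -0.03. Gfap, the astrocyte intermediate filament gene whose promoter drives both viruses, measured 5600, 5610.2 and 5541 in WT, 7985, 8105 and 8136 in HD and 5582, 5198 and 4748 in WNT5B libraries. Its WNT5B values reached the WT range from below and were all under the HD values (log2 difference -0.11, SE 0.07, limma adjusted p = 0.17), and as deposited it met the test for being near WT described below (equivalence limma adjusted p = 0.011). It no longer met it with the trend removed (difference -0.31), with equal library totals or when any 1 WT library was left out. Mouse Htt, the endogenous huntingtin gene, was lower in WNT5B libraries as deposited (9241 ± 655 against 12609 ± 12.2, SD, n = 3; log2 difference -0.45, SE 0.06, limma adjusted p = 0.00044) and higher by 0.47 with the trend removed, so its direction rests on the treatment of transcript length.

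Short transcripts were higher and long transcripts lower in WNT5B libraries. Genes were ordered by their longest annotated transcript and divided into 10 bins of equal gene number. In the shortest bin, with a median length of 1093.5 bases, the median log2 difference was 1.61, with 65.5 percent of genes apart and higher and 9.48 percent apart and lower. In the longest bin, with a median of 8414.5 bases, it was -1.13, with 12.4 and 61.5 percent. Per library, the median difference of the longest bin minus that of the shortest was -2.64, -2.76 and -2.94 in the WNT5B libraries (mean -2.78 ± 0.148, SD, n = 3). It was between -0.0236 and 0.0204 in WT and between -0.0684 and -0.0577 in HD libraries. The WNT5B libraries did not overlap either control group, and the exact two-sided permutation test against WT gave p = 0.1, the smallest value that 3 against 3 libraries allow. Transcript length and GC content together accounted for 17.2 percent of the variance of the log2 differences across genes, and length alone for 14.0 percent. A spline of each library on both was therefore subtracted in a second fit ("trend removed"), after which the medians of the bins ran from 0.273 in the shortest bin to -0.0801 in the ninth. Removing the trend also removes any true difference that follows length, so the counts of each list below are given from both fits.

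**Figure D1:**
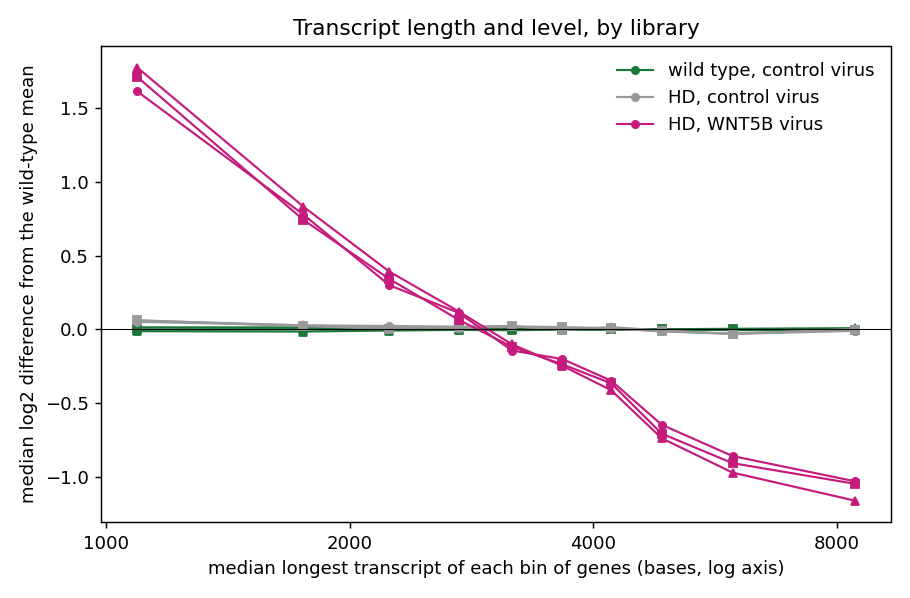
Median log2 difference from the wild-type mean (vertical axis) in 10 bins of genes ordered by longest transcript (horizontal axis, log scale, bases). Each line is 1 library (circle, square and triangle for replicates 1, 2 and 3). The 3 WNT5B lines run from above 1.6 in the shortest to below -1 in the longest bin, and the 6 control lines stay near 0.

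A gene was called apart from WT at a Benjamini-Hochberg adjusted p below 0.05 with at least a 1.5-fold difference (limma), and near WT when the same fit placed it within 1.5-fold in both directions by 2 one-sided tests, adjusted likewise. Of the 15078 genes, 4615 (30.6 percent) were apart and higher in WNT5B libraries, 5206 (34.5 percent) apart and lower, 765 (5.07 percent) near and 4492 (29.8 percent) neither. Without the bound on size 11100 genes (73.6 percent) passed the test of a difference. Replicates of the groups did not overlap for 80.2 percent of genes. With the trend removed, 5114 (33.9 percent) were higher, 3740 (24.8 percent) lower and 864 (5.73 percent) near. Higher genes made up 47.0 percent of the genes apart as deposited, 57.8 percent with the trend removed and 30.2 percent with equal library totals. Equal totals moved the median of all genes from -0.24 to -0.80 and kept 65 of the 765 near calls, so nearness here is relative to the authors' scale. Leaving out WT library 1, 2 or 3 brought the near count to 105, 72 and 137, while leaving out a WNT5B library gave 826 to 1053. In both fits together 3923 genes (26 percent) were higher, 3342 (22.2 percent) lower and 230 (1.53 percent) near. For HD against WT the same rules gave 15.1 percent higher, 17.9 percent lower and 56.7 percent near of 15241 genes, a comparison that shares the WT libraries. Of the genes given with values, Gfap and Wnt5a changed class (higher, lower, near or neither) when the trend was removed.

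Near genes were abundant ones. Their median WT value was 5244, against 1141 for genes apart and higher, 1950.2 for genes apart and lower and 474 for genes that were neither. No gene with a mean under 100 was near, and 14.1 percent of genes with a mean over 10000 were. Genes apart and higher had a median longest transcript of 2507 bases and a GC content of 52.6 percent, and genes apart and lower 4395 bases and 47.5 percent. Of the genes apart and lower, 7.01 percent were listed at 0 in all 3 WNT5B libraries. Those genes passed the filter on low values only through the WT libraries. Single-exon genes, 474 in all, were 28.9 percent higher, 32.7 percent lower and 2.11 percent near, against 30.7, 34.6 and 5.17 percent of genes with several exons. With the trend removed their median log2 difference was -0.51, against 0.07.

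**Figure D2:**
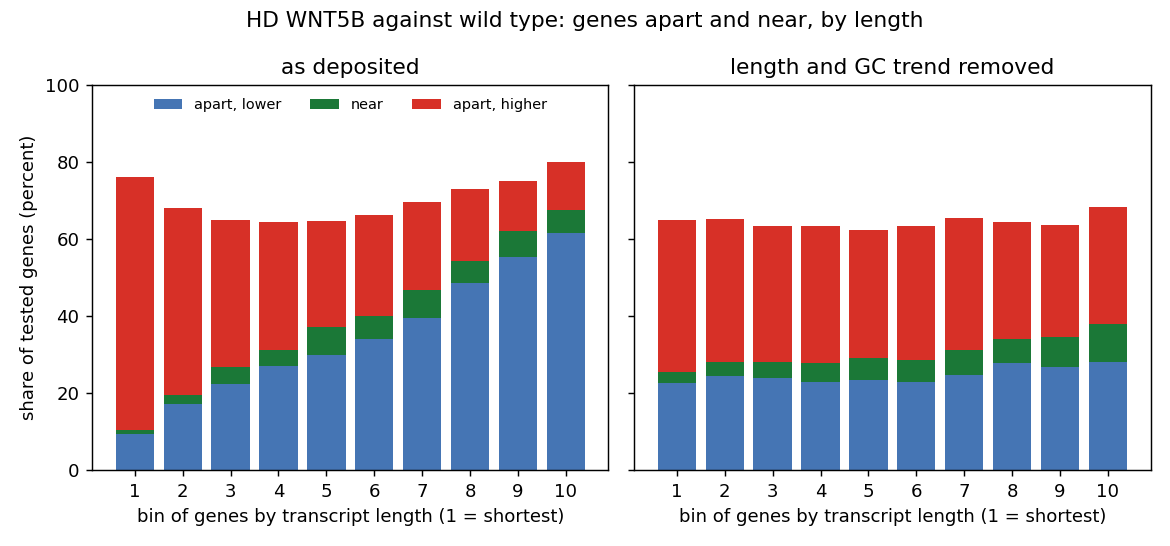
Share of tested genes (percent) that were apart and lower, near, or apart and higher, in 10 bins of genes ordered by longest transcript (1 is the shortest), as deposited (left) and with the length and GC trend removed (right). Higher genes fall from 65.5 to 12.4 percent across the bins at left, and lie between 28.9 and 39.5 percent in every bin at right.

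Unnamed gene models and repeated symbols left out, 10 genes that were at least 2-fold off WT in HD libraries were near WT in WNT5B libraries in both fits. Over all genes, without those exclusions, 2137 of 15241 (14 percent) were at least 2-fold off WT in HD libraries. Of all 15078 genes 1.53 percent were near WT in WNT5B libraries in both fits. The 10 genes were chosen by that rule, so their HD values are a description. Of these 10, 9 were low in HD libraries and 1, Ewsr1, was high. Cyp2s1, a cytochrome P450 of the lung and other epithelia (chromosome 7, 25802475 to 25816913), measured 1366, 1435 and 1388 in WT, 343, 326 and 304 in HD and 1465, 1439 and 1649 in WNT5B libraries. Every WNT5B library was above all WT libraries by a small margin, with a log2 difference of 0.12 (SE 0.09, equivalence limma adjusted p = 0.027), against -2.10 in HD. Tubb4a, the beta-tubulin of oligodendrocytes and neurons (chromosome 17, 57080066 to 57087782), measured 41693, 42080 and 40261 in WT, 15784, 15939 and 16152 in HD and 50430, 51350 and 44700 in WNT5B libraries. Its WNT5B values all exceeded WT and none came near the HD values (difference 0.24, SE 0.06, and -0.23 with the trend removed). Ewsr1, an RNA-binding protein of transcription and splicing (chromosome 11, 5069689 to 5099266), measured 11740, 12151 and 12181 in WT, 25256, 25138 and 25702 in HD and 13490, 11467 and 10467 in WNT5B libraries. The WNT5B values spanned the WT values and lay well under the HD values (difference -0.03, SE 0.09, equivalence limma adjusted p = 0.017).

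Of the others, 2 act in lipid handling. Pigq, part of the enzyme that starts glycosylphosphatidylinositol anchors, measured 4789 ± 132 in WT, 1606 ± 68.5 in HD and 5822 ± 267 in WNT5B libraries (SD, n = 3), with 21.3 percent of its exon sequence also annotated to other genes. Agpat1, an acyltransferase of phosphatidic acid synthesis, measured 7647 ± 287, 2969 ± 68.4 and 9371 ± 594. Both were above WT in every WNT5B library, by log2 0.28 and 0.29, inside the 1.5-fold bound. Channels, transporters and receptors supplied 4 more. Chrna4, a subunit of the main brain nicotinic receptor, measured 1704 ± 64.2 in WT, 792 ± 35.3 in HD and 1607 ± 178 in WNT5B libraries. Kcnc4, the Kv3.4 potassium channel, measured 1308 ± 77.9, 641 ± 15.1 and 1390 ± 113. Slc6a7, the brain proline transporter, measured 1654 ± 18.1, 790.1 ± 35.9 and 1547 ± 94.4. The WNT5B libraries of Chrna4 and Kcnc4 overlapped the WT libraries, and those of Slc6a7 were all below WT by a small margin (difference -0.10). Acvrl1, the ALK1 receptor of endothelial BMP signalling, measured 4112 ± 106, 1902 ± 21.1 and 4530.5 ± 391, and Camk1, a calcium and calmodulin-dependent kinase, 1313 ± 23.5, 546 ± 7.27 and 1399.5 ± 156. The log2 differences WNT5B minus HD ran from -1.11 for Ewsr1 to 2.22 for Cyp2s1, and their direction is fixed by how the genes were chosen. Of all 15103 genes in that comparison 30.2 percent were apart and higher, 33.4 percent apart and lower and 5.13 percent near. The near calls were fragile: 0 of the 10 were kept when WT library 1, 2 or 3 was left out, 3 with equal library totals and 4 with a spread fitted per group, against 8 to 10 when a WNT5B library was left out.

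**Figure D3:**
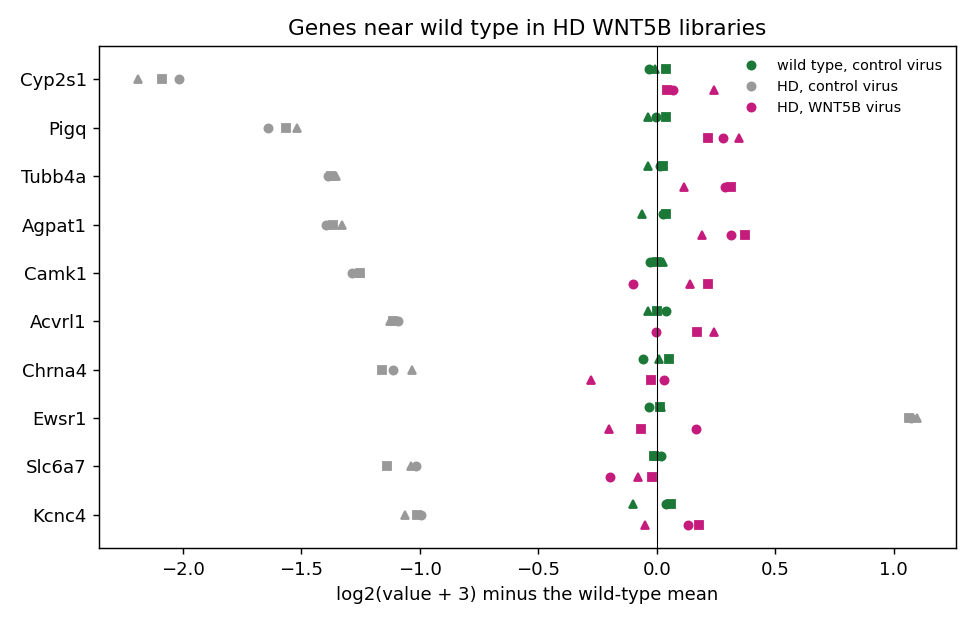
Log2(value + 3) minus the wild-type mean for the 10 named genes at least 2-fold off in HD libraries and near wild type in WNT5B libraries in both fits. Each point is 1 library (circle, square and triangle for replicates 1, 2 and 3). WNT5B points lie around the wild-type line, and HD points lie far to its left except those of Ewsr1, which lie to its right.

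Unnamed gene models and repeated symbols left out, the genes that stayed on the HD side of WT numbered 726 higher and 769 lower. Each was apart from WT in HD libraries as deposited and in WNT5B libraries in both fits, and had a WT or WNT5B mean of at least 100. Those counts follow from comparisons that share the WT libraries. Over all tested genes 15.1 percent were apart and higher and 17.9 percent apart and lower in HD libraries. In WNT5B libraries the shares in both fits were 26 and 22.2 percent. The genes named below were chosen for lying on the same side of WT in both groups, so that side is fixed by the choice. Among the 6 highest by the smaller of the 2 differences were genes of myeloid cells. They included S100a8 and S100a9, the subunits of calprotectin in neutrophils and monocytes. S100a8 measured 1.41, 2.42 and 2.19 in WT, 299, 243 and 281 in HD and 762, 604 and 703 in WNT5B libraries, above both control groups in every WNT5B library (log2 difference 7.11, SE 0.31, and 5.79 in HD). S100a9 measured 2.82, 4.85 and 2.19, 324, 289 and 342 and 476, 799.9 and 615, again without overlap (6.65 and 5.69). Retnlg, a resistin-like protein of neutrophils, was listed at 0 in all 3 WT libraries and measured 98.1, 92.9 and 75.7 in HD and 376, 308 and 360.3 in WNT5B libraries, so no fold against WT is given. Lcn2, a lipocalin of neutrophils and reactive astrocytes, measured 2.82, 5.65 and 7.3 in WT, 1808, 1775 and 1745 in HD and 182, 647 and 712 in WNT5B libraries. It was the only one of the 6 that was lower in WNT5B than in HD libraries in every replicate (WNT5B minus HD -2.01, limma adjusted p = 0.012), and it remained far above WT (log2 difference 5.78, SE 0.61). S100a8, S100a9, Retnlg and Lcn2 were under 10 in every WT library and passed the filter only through the WNT5B libraries. No p-value against WT is therefore given for them. Itgad, an integrin alpha chain of leukocytes, measured 14.5 ± 3.46 in WT, 321 ± 10.7 in HD and 864 ± 107 in WNT5B libraries, and Dcst2, a membrane protein of sperm, 16.7 ± 5.75, 404 ± 26.8 and 636 ± 200.

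The 6 lowest included 2 receptors of microglia. Fcrls, a scavenger receptor of resident microglia, measured 1270.3, 1294 and 1346 in WT, 42.3, 39.8 and 50.5 in HD and 66.2, 51.4 and 112 in WNT5B libraries (log2 difference -4.11, SE 0.31, limma adjusted p = 3.7e-05). Gpr34, a microglial receptor for a lysophospholipid, measured 928, 932 and 992, 57.4, 59 and 62.8 and 96.6, 32.1 and 114 (-3.68, limma adjusted p = 0.00049). WNT5B and HD values overlapped for Gpr34, and both groups were far under WT. Kctd21, an adaptor of cullin 3 ubiquitin ligases, measured 1044, 1044 and 984, 105, 105 and 97.3 and 159, 59.4 and 10.7. Gpx6, a glutathione peroxidase, measured 695, 686 and 678 in WT, 55, 40.6 and 44.9 in HD and 1.79, 69.1 and 0 in WNT5B libraries. Hist1h2be, a histone H2B gene, measured 574 ± 41.5, 31.7 ± 6.41 and 22.6 ± 36.2, and Cyp2a5, a cytochrome P450, 128 ± 5.04, 10.5 ± 3.92 and 13.6 ± 23.5. Several of these WNT5B values lie at or under a few reads, so their size is poorly fixed (SE 1.18 for Gpx6 and 1.11 for Hist1h2be). Gpx6, Hist1h2be and Cyp2a5 reached 10 in only 1 WNT5B library and so passed the filter only through the WT libraries.

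Another 310 genes were lower than WT in HD and higher than WT in WNT5B libraries, and 174 the reverse, by the same rule. The named genes were chosen for these opposite directions, and the p-values given for them come from the calls that chose them. The 5 named on the higher side include 2 microglial genes. Cx3cr1, the fractalkine receptor of microglia (chromosome 9, 119901616 to 120069879), measured 4729, 4785 and 4780 in WT, 594, 572 and 597 in HD and 20611, 21166 and 18043 in WNT5B libraries. Aif1, which encodes the microglial protein IBA1, measured 361, 304 and 337, 63, 78.2 and 78.2 and 1796, 2075 and 1915. The 3 groups did not overlap for either gene, and both rose against WT (log2 2.06, SE 0.07, and 2.52, SE 0.13, limma adjusted p = 8.0e-07 and 6.6e-06), by 2.58 and 1 with the trend removed. Dkk2, a secreted Wnt modulator, measured 112, 122 and 107, 19.9, 42.8 and 32 and 755, 726 and 251, and Tbxa2r, the thromboxane receptor, 43.6, 44.4 and 50.4, 17.5, 3.69 and 12.3 and 152, 235 and 266. Gdf1 shares all of its exon bases with Cers1 and Upf1, so its rise to 18728 is uncertain.

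On the lower side, Fos, the immediate early transcription factor, measured 360.3, 376 and 352 in WT, 973, 1015 and 1047 in HD and 114, 127 and 157 in WNT5B libraries (log2 difference -1.44, SE 0.24, limma adjusted p = 0.0015). Dll4, a Notch ligand of blood vessels, measured 236, 219 and 192, 863, 880.4 and 834 and 30.4, 40.2 and 47.2 (-2.39, limma adjusted p = 0.00048). Nt5e, the ectonucleotidase CD73 that makes extracellular adenosine, measured 1289 ± 31.4, 3854 ± 113 and 421 ± 94.7. In each case every HD library lay above WT and every WNT5B library below it, an order largely fixed by how the genes were chosen. The same order held for Rbm3, a cold-inducible RNA-binding protein (2684 ± 103, 8513 ± 46.1 and 834 ± 272), and for Armcx5 (1679 ± 57, 7360.1 ± 201 and 565 ± 124).

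**Figure D4:**
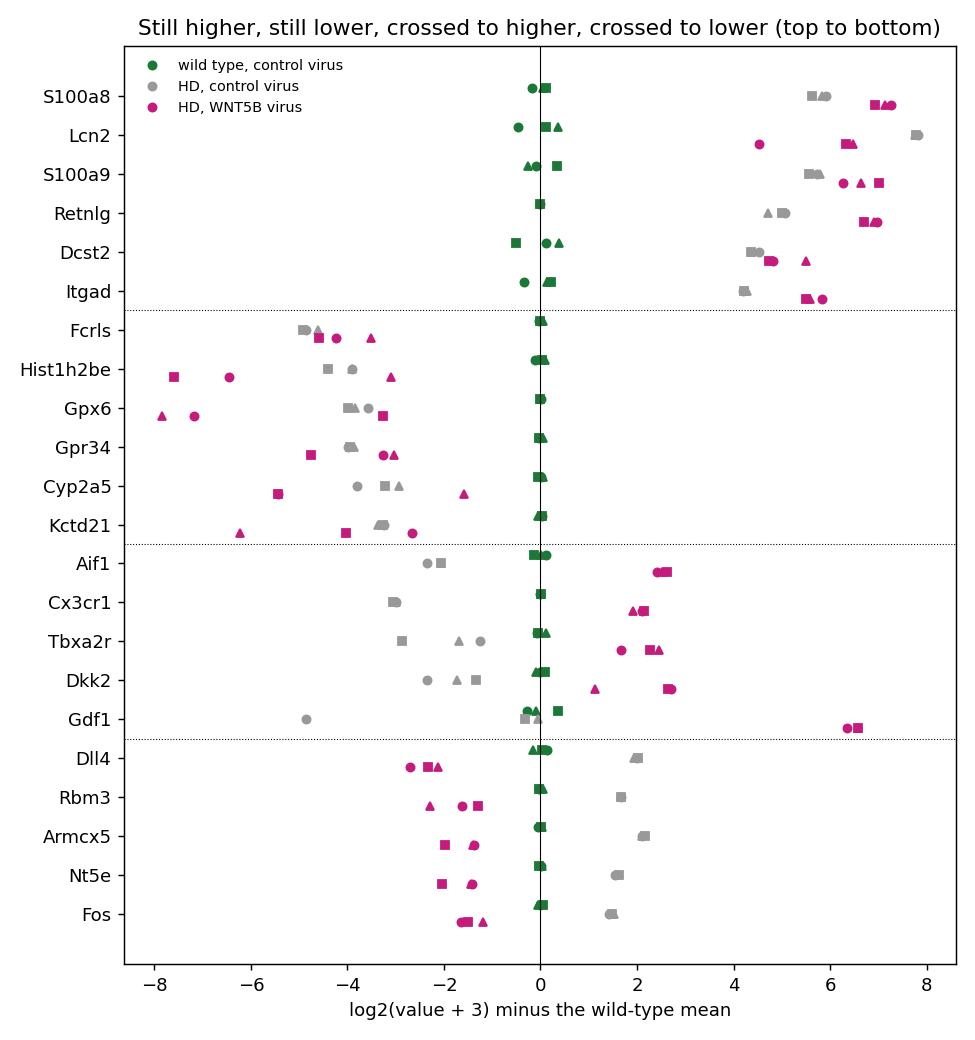
Log2(value + 3) minus the wild-type mean for genes still higher, still lower, crossed to higher and crossed to lower, in 4 blocks from top to bottom. Each point is 1 library (circle, square and triangle for replicates 1, 2 and 3). In the first 2 blocks HD and WNT5B points lie on the same side of wild type, and in the last 2 the group means lie on opposite sides.

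Large rises and falls were ranked among named genes that were apart in both fits, did not overlap between the groups and had a group mean of at least 100, which left 3705 higher and 2856 lower. The 8 largest rises against WT by this rule were Gp1bb, Ccnb1ip1, Agrp, Ccl17, S100a8, Retnlg, Nrtn and S100a9. Of these, Agrp, Ccnb1ip1, S100a8, Retnlg and S100a9 were under 10 in every WT library and passed the filter only through the WNT5B libraries. No p-value against WT is given for them. Agrp, a feeding neuropeptide of the hypothalamic arcuate nucleus, measured 7.74, 4.04 and 8.76 in WT, 50.2, 62.7 and 48.6 in HD and 1816, 2249 and 1718 in WNT5B libraries (log2 difference 7.64, SE 0.32). Ccl17, a chemokine of dendritic cells, measured 16.9, 14.5 and 16.1, 332, 349 and 306 and 3459, 3256 and 2526 (7.34, limma adjusted p = 8.0e-07). Nrtn, the neurotrophic factor neurturin, measured 78.8, 68.6 and 34.3, 112, 125 and 158 and 5859.7, 7284 and 6229.5. For all 3 genes the WNT5B libraries lay far above both control groups, which for WT follows from how the genes were chosen. Ccnb1ip1, a meiotic ubiquitin ligase, measured 5.63, 0.808 and 4.38 in WT and 2198, 1540.4 and 939 in WNT5B libraries. Gp1bb, a platelet glycoprotein subunit, averaged 162 and 50738, but 92.9 percent of its exon bases are shared, mainly with the neuronal septin Sept5, so the assignment of its reads is uncertain.

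Among the 8 largest falls by the same rule, 3 were of genes without a large exon overlap. Uprt, a uracil phosphoribosyltransferase homologue, measured 469, 456 and 444 in WT and 247, 257 and 275 in HD libraries and was listed at 0 in all 3 WNT5B libraries. Cntnap5c, a neurexin-family adhesion protein, measured 282, 251 and 296 in WT and was likewise listed at 0 in all 3. P2ry13, an ADP receptor of microglia, measured 1040.2, 1005 and 988 in WT, 179, 190.2 and 188 in HD and 69.8, 1.61 and 0 in WNT5B libraries. The remaining falls were of genes that share much of their exons: Pakap (98.2 percent, with Akap2 and Palm2), Rsc1a1 (100 percent, with Ddi2), Moap1 (87.7 percent), Pcdha7 (59.9 percent, with other alpha protocadherins) and Fsbp (47.5 percent, with Rad54b). In WNT5B libraries these held values below a single read, except 22.1 for Moap1 in library 3, and such values depend on how shared reads were divided.

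Genes were also read by lists, each described by its counts and its median log2 difference beside those of all 15078 genes (30.6 percent higher, 34.5 percent lower, 5.07 percent near, median -0.24 as deposited and 0.05 with the trend removed). Counts with the trend removed are given in the order higher, lower and near. In these bulk libraries fewer cells of a type and less RNA per cell cannot be told apart.

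In the pathway named by the study, 9 of 14 tested Wnt ligands were neither apart nor near, against 29.8 percent of all genes. Some ligands were low: Wnt5b, Wnt2b and Wnt16 averaged 65.4, 53.8 and 32.1 in WT libraries. Of all genes with a mean under 100, 11.9 percent were apart and higher, 30.1 percent apart and lower and 0 percent near. On the Wnt ligand list 3 of 14 tested members were apart and higher (Wnt10b, Wnt3, Wnt4), 2 apart and lower (Wnt16, Wnt2b) and 0 near (4, 2 and 0 with the trend removed). Wnt10b, a canonical ligand, measured 122, 133 and 124 in WT, 2535 ± 27.2 in HD and 1105, 834 and 1012 in WNT5B libraries (log2 difference 2.92, SE 0.20, limma adjusted p = 2.3e-05). It was thus above WT in every WNT5B library but under the HD level. Wnt4 measured 380.1 ± 9.56, 135 ± 26.5 and 1222 ± 122, on the low side of WT in HD and on the high side in WNT5B libraries. Wnt2b (50, 50.9 and 60.6 in WT) and Wnt16 (27.4, 39.6 and 29.2) were listed at 0 in all 3 WNT5B libraries. Both passed the filter only through the WT libraries. Wnt5a, the closest relative of Wnt5b, averaged 331 and 427 and was not called as deposited, but was apart and higher by 1.43 with the trend removed. Of non-canonical receptors and polarity genes, 4 of 28 tested members were apart and higher (Dvl2, Fzd2, Ryk, Vangl2), 15 apart and lower and 2 near (Daam1, Dvl1), or 8, 10 and 4 with the trend removed (median -0.79 and -0.14). Vangl2, the core planar polarity protein, rose from 677 ± 20.9 to 2931 ± 561 (log2 2.09, limma adjusted p = 3.5e-05), and Dvl2, a cytoplasmic transducer of Frizzled receptors, from 1464 ± 38 to 3146 ± 415. The receptor Ror1 fell from 463 ± 19 to 88.9 ± 10.2 and Daam2, a formin that links Dishevelled to actin, from 4094 ± 50.7 to 1063 ± 108. Dvl1 stayed near WT at 5199 ± 549 against 4785 ± 107. Of targets and regulators of canonical Wnt signalling, 1 of 23 tested members were apart and higher (Tcf7l2), 13 apart and lower and 1 near (Dkk3), or 2, 6 and 3 with the trend removed. Axin2, the textbook target of beta-catenin, fell from 1516 ± 13.1 to 344 ± 46.6 (log2 difference -2.14, SE 0.15, limma adjusted p = 2.4e-05), and Tnfrsf19 from 4329.6 ± 36.6 to 982 ± 137. The WNT5B and WT libraries did not overlap for either, nor for 80.2 percent of all tested genes.

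For NFAT, calcineurin and calcium signalling, 5 of 32 tested members were apart and higher (Camkk1, Camkk2, Itpr2, Ppp3ca, Rcan2), 13 apart and lower and 7 near (7, 5 and 8 with the trend removed, median -0.49 and -0.03). Camk2a, the calcium-dependent kinase of excitatory synapses, measured 118180, 119070 and 116440 in WT, 87505 ± 685 in HD and 20824, 20001 and 20144 in WNT5B libraries (log2 difference -2.54, SE 0.04, limma adjusted p = 4.2e-08). Camk4, a nuclear calcium-dependent kinase, fell from 7787 ± 147 to 2316 ± 167. Rcan1, a calcineurin inhibitor that is itself an NFAT target, measured 3157, 3100.3 and 3126 in WT, 4759 ± 63.5 in HD and 3552, 3241 and 3832 in WNT5B libraries. It was near WT in both fits (difference 0.18, SE 0.07), and every WNT5B library lay between the WT and HD levels. That call too was lost when any 1 WT library was left out. Among metalloproteinases and their inhibitors 10 of 23 tested members were apart and higher, 9 apart and lower and 0 near (9, 6 and 0 with the trend removed). Besides Mmp14, the inhibitor Timp2 rose from 13162 ± 166 to 27142 ± 1238, below the HD level of 29423 ± 159. Timp3, a matrix-bound inhibitor, fell from 9899 ± 137 to 2343 ± 190, and Adamts4, an aggrecanase, from 2654 ± 39.2 to 299 ± 18.9 (log2 -3.14, limma adjusted p = 1.1e-06). Mmp17, a membrane-anchored metalloproteinase, measured 12325 ± 287 in WT, 5053 ± 114 in HD and 4766 ± 571 in WNT5B libraries, so it remained as low as in HD.

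Striatal projection neuron genes held more near calls than the average of all genes: 7 of 39 tested members were apart and higher, 19 apart and lower and 9 near (7, 17 and 9 with the trend removed), that is 23.1 percent near beside 5.07 percent. Of all genes with a mean over 10000, 14.1 percent were near. The list median was -0.38 against -0.19 in HD libraries. Kcnip2, a potassium channel subunit, measured 21055, 21242 and 20350 in WT and 18785, 18470 and 18528 in WNT5B libraries, and Ptpn5, the striatal phosphatase STEP, 40032, 40870 and 39475 and 44214, 43606 and 42882. Their differences of -0.17 and 0.12 lay within the bound although the groups did not overlap. Other defining genes moved far. Gnal, the G protein that couples dopamine and adenosine receptors to cyclase, measured 59240, 60313 and 59256 in WT, 41289 ± 335 in HD and 9501, 9143 and 9088 in WNT5B libraries (log2 difference -2.69, SE 0.04, limma adjusted p = 3.7e-08). Rgs9, a striatal regulator of G proteins, rose from 36487 ± 207 to 103750 ± 2201 from an HD level of 29090 ± 56.3. Foxp1, a transcription factor of these neurons, rose from 21319, 21574 and 21911 to 220720, 231370 and 192030 (log2 difference 3.31, SE 0.07, limma adjusted p = 1.8e-07). Of 2 peptide genes, Penk averaged 81595 in WT, 92842 in HD and 40111 in WNT5B libraries, and Pdyn 4459, 4214 and 2754; both were apart and lower in both fits.

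The lists of cortical and interneuron genes held more lower than higher calls. For cortical excitatory neurons 4 of 20 tested members were apart and higher (Foxp2, Lamp5, Mef2c, Neurod2), 10 apart and lower and 3 near (Cux1, Slc17a7, Tle4), or 6, 8 and 1 with the trend removed (median -0.97, -0.56 with the trend removed and -0.71 in HD libraries). Their summed value was 80748 to 99777 in WNT5B and 69439 to 69702 in WT libraries, but their share of all summed values was lower, at 0.101 to 0.122 percent against 0.127 to 0.128. Emx1, a transcription factor of the dorsal forebrain, measured 134, 143 and 159.8 in WT and 48.1 ± 6.68 in HD libraries and was listed at 0 in all 3 WNT5B libraries. It passed the filter only through the WT libraries. Neurod2, another cortical transcription factor, instead rose from 814 ± 44.7 to 2866 ± 188, from an HD level of 577 ± 39.1. Lamp5, a membrane protein of upper-layer and some inhibitory neurons, rose from 5143 ± 16.9 to 13055 ± 599. For striatal interneurons 4 of 15 tested members were apart and higher (Calb2, Npy, Pvalb, Sst), 9 apart and lower and 0 near, and with the trend removed 1, 11 and 0. Nos1, neuronal nitric oxide synthase, measured 6726, 6830.5 and 6686 in WT, 3705 ± 123 in HD and 463, 392 and 298 in WNT5B libraries (log2 difference -4.15, SE 0.16, limma adjusted p = 1.8e-06). The cholinergic genes Slc5a7, the choline transporter, and Chat, choline acetyltransferase, fell from 2925 ± 106 to 79.1 ± 27.4 and from 1344 ± 52.4 to 581 ± 104. Pvalb, parvalbumin, measured 1105 ± 12.7 in WT, 514 ± 18.7 in HD and 5202 ± 815 in WNT5B libraries.

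At synapses, 5 of 25 tested members were apart and higher (Cplx2, Napb, Rab3a, Syn1, Syt7), 12 apart and lower and 4 near (Cplx1, Erc2, Slc32a1, Sv2a) on the vesicle and release list (8, 9 and 6 with the trend removed). Sv2a, a vesicle glycoprotein, was near WT at 24174, 27656 and 27504 against 27196, 27252 and 26631, and Cplx1, a complexin that clamps release, was near at 28508, 31148 and 35389 against 27477, 27828 and 26950. Sv2a values overlapped between the groups, and those of Cplx1 were all above WT. Syt1, the calcium sensor of release, fell from 64727 ± 295 to 10140 ± 1149 (log2 difference -2.68, SE 0.08, limma adjusted p = 7.2e-07), and Unc13a, a priming factor, from 26064 ± 260 to 6566 ± 276, while Rab3a, a vesicle GTPase, rose from 20330 ± 363 to 77475 ± 4993. For glutamate and GABA receptors 8 of 36 tested members were apart and higher, 19 apart and lower and 4 near (Gabrb1, Gria1, Grik2, Grm4). Their median of -0.69 turned to 0.33 with the trend removed, and the counts to 16, 11 and 1, so no direction is given for the list. Grm4, a presynaptic glutamate receptor, measured 5083, 5024 and 4831 in WT, 2617 ± 59.9 in HD and 4513, 5942 and 4651 in WNT5B libraries and was near WT in both fits. Gabrd, the extrasynaptic GABA-A delta subunit, rose from 7492 ± 194 to 40402 ± 1662 and Grin1, the obligatory NMDA receptor subunit, from 33261 ± 1120 to 90608 ± 4292, with 2.29 and 1.46 after the trend was removed. Of immediate early genes 3 of 20 tested members were apart and higher (Dusp5, Ier2, Npas4), 9 apart and lower and 0 near (5, 11 and 0 with the trend removed). Arc, which regulates AMPA receptor trafficking, measured 7079, 7229 and 6721 in WT, 1846 ± 88.8 in HD and 2669, 3079 and 2522 in WNT5B libraries, so it lay between both groups and remained below WT (log2 difference -1.35, SE 0.08, limma adjusted p = 1.5e-05). Egr1 and Egr3, transcription factors induced by activity, fell from 17196 ± 243 to 9898 ± 1263 and from 11156 ± 107 to 2849 ± 176. Bdnf, the trophic factor that cortical neurons supply to the striatum, averaged 404 in WT, 77.5 in HD and 91.9 in WNT5B libraries (log2 -2.14, limma adjusted p = 0.00059).

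Astrocytes, the cells targeted by the viruses, did not move as 1 block. On the homeostatic list 9 of 25 tested members were apart and higher, 12 apart and lower and 1 near (Aldoc), or 9, 11 and 2 with the trend removed. Slc1a2, the main glutamate transporter, measured 206720, 208500 and 211100 in WT, 111250 ± 608 in HD and 34906, 33938 and 32621 in WNT5B libraries (log2 difference -2.63, SE 0.04, limma adjusted p = 6.0e-08; -1.35 with the trend removed). It was thus farther from WT than in HD libraries, with no overlap among the 3 groups. Atp1b2, a sodium pump subunit, fell from 21975 ± 357 to 3466 ± 238, Aqp4, the astrocyte water channel, from 6092 to 256 and Kcnj10, the Kir4.1 potassium channel, from 15989 to 6259.6. S100b, a calcium-binding protein of astrocytes, measured 8174, 8124 and 8078 in WT, 4674 ± 105 in HD and 77784, 80022 and 66352 in WNT5B libraries, and Gjb6, connexin 30, rose from 1684 ± 41.4 to 11763 ± 267. Aldoc, an astrocytic aldolase, stayed near WT at 41383 ± 1864 against 46690 ± 671. Reactive astrocyte genes leaned higher: 12 of 32 tested members were apart and higher, 4 apart and lower (Gbp2, Ggta1, Stat3, Steap4) and 2 near (Gfap, H2-D1), or 13, 2 and 1 with the trend removed, with a median of 0.52 against 0.70 in HD libraries, which became 0.03 with equal library totals. Fkbp5, a glucocorticoid-induced immunophilin, measured 2662, 2762 and 2670.2 in WT, 8228 ± 74.8 in HD and 12310, 12220 and 11601 in WNT5B libraries. The complement gene C4b rose from 3933 ± 71.5 to 15087 ± 1658 over an HD level of 9032 ± 194, and S100a10 from 675 ± 19.1 to 6736 ± 780. Serpina3n, a widely used marker of reactive astrocytes, averaged 548, 1691 and 740.4 and was not called against WT. Lcn2, one of the higher members, passed the filter only through the WNT5B libraries. Gbp2 and Steap4, listed at 0 in all 3 WNT5B libraries, passed it only through the WT libraries.

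Homeostatic microglia genes held more lower than higher calls, with Cx3cr1 and Aif1 among the higher ones: 5 of 23 tested members were apart and higher (Aif1, C1qa, C1qb, Cx3cr1, Siglech), 14 apart and lower and 0 near (4, 15 and 1 with the trend removed), with a median of -1.18 against -1.67 in HD libraries. Their summed value was 56376 to 62123 in WNT5B, 23612 to 23781 in HD and 50245 to 50880 in WT libraries, above WT although most members were lower. As a share of all summed values it lay below WT, at 0.0706 to 0.0742 percent against 0.0918 to 0.0929. P2ry12, the ADP receptor of microglial processes, measured 2414, 2365 and 2513 in WT, 389.5 ± 25.9 in HD and 408, 607 and 510.4 in WNT5B libraries (log2 difference -2.27, SE 0.16, limma adjusted p = 2.6e-05). The WNT5B values lay above the HD mean and far under WT. Tmem119, another marker of resident microglia, averaged 1495, 261 and 513, and Csf1r, the receptor that keeps microglia alive, 8022, 3813 and 3279. Of disease-associated microglia genes 8 of 20 tested members were apart and higher, 2 apart and lower (Axl, Cd9) and 0 near (8, 5 and 0 with the trend removed), and the median of 0.76 became 0.07. Lpl, lipoprotein lipase, rose from 5505 ± 103 to 94907 ± 13336 (log2 difference 4.10, SE 0.10, limma adjusted p = 3.0e-07), Apoe from 61074 ± 2333 to 213410 ± 14301 and Fth1, ferritin heavy chain, from 87749 ± 2079 to 745950 ± 70290. These 3 are made by several brain cell types. The summed value of the list's members was 1.46 to 1.65 percent of all summed values in WNT5B and 0.403 to 0.415 percent in WT libraries, and most of it in WNT5B libraries was Fth1.

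Oligodendrocyte genes were split. On that list 6 of 23 tested members were apart and higher, 12 apart and lower and 3 near (Fa2h, Mbp, Plekhb1), or 4, 10 and 4 with the trend removed, with a median of -0.81, -0.15 with the trend removed and -1.01 in HD libraries. Opalin, a late myelin protein, averaged 1662 in WT, 824 in HD and 4494 in WNT5B libraries, under WT in HD and over it in WNT5B libraries. Mag, the myelin-axon adhesion protein, measured 16128, 15981 and 15795 in WT, 8123 ± 118 in HD and 6155, 6526 and 6157 in WNT5B libraries and remained low (log2 difference -1.35, SE 0.04, limma adjusted p = 6.5e-07). Mobp fell from 26460 ± 183 to 10056 ± 281 and Mal, a myelin proteolipid, rose from 25668 ± 195 to 77659 ± 1254. Plekhb1 was near WT, at 19308 ± 1078 against 24643 ± 103. For oligodendrocyte precursors 2 of 16 tested members were apart and higher (Cacng4, Matn4), 8 apart and lower and 2 near (Epn2, Olig1), or 2, 8 and 1 with the trend removed. Cacng4, an AMPA receptor auxiliary subunit, rose from 10214 ± 114 to 97269 ± 12617, and Ptprz1, a receptor phosphatase, fell from 14986 ± 298 to 2741 ± 451. Bcas1, a marker of early myelinating cells, measured 16825 ± 293, 8083 ± 139 and 9984 ± 811.

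Markers of cells at the brain's borders also differed. For ependymal motile cilium genes 10 of 15 tested members were apart and higher, 0 apart and lower and 0 near (9, 0 and 0 with the trend removed), and the summed value of all 15 members was 5942 to 7593 in WNT5B, 2936 to 3044 in HD and 2279 to 2349 in WT libraries. Ccdc153 rose from 118 ± 0.228 to 1169.6 ± 119 and Cfap126, a cilium protein, from 66.6 ± 12.3 to 881 ± 274. On the choroid plexus list 3 of 15 tested members were apart and higher (Folr1, Kcne2, Ttr), 3 apart and lower (Enpp2, Kl, Trpm3) and 0 near, and with the trend removed 6, 1 and 0. Ttr, the thyroid hormone carrier that leads it, measured 719, 671 and 689 in WT, 679 ± 7.31 in HD and 10872, 12776 and 14320 in WNT5B libraries (log2 difference 4.18, SE 0.11, limma adjusted p = 3.2e-07). Kcne2, at 11.3, 9.69 and 10.9 in WT, passed the filter only through the WNT5B libraries. For blood cells 5 of 7 tested members were apart and higher (Hba-a1, Hba-a2, Hbb-bs, S100a8, S100a9), 1 apart and lower (Hbb-bt) and 0 near, or 3, 1 and 0 with the trend removed, and the median of 2.20 became 0.43. S100a8 and S100a9 passed the filter only through the WNT5B libraries. Hba-a1, an alpha globin, rose from 519.7 ± 13.2 to 3608 ± 314 (log2 2.79, and 0.62 with the trend removed) and Hbb-bt, a beta globin, fell from 318 ± 4.02 to 104 ± 92.6. Slc4a1 and Ppbp, which mark red cells and platelets, were listed at 0 in all 3 WNT5B libraries. For endothelial and mural cells 5 of 22 tested members were apart and higher (Cldn5, Flt1, Kcnj8, Ly6a, Mfsd2a), 13 apart and lower and 0 near (4, 9 and 0 with the trend removed). Cldn5, the tight junction claudin of brain endothelium, measured 1769, 1681 and 1679 in WT, 1679 ± 36 in HD and 30899, 29359 and 26434 in WNT5B libraries (log2 difference 4.07, SE 0.07, limma adjusted p = 7.6e-08), while Rgs5 and Pdgfrb, both of pericytes, fell from 6748 ± 154 to 914 ± 114 and from 2183 ± 30.7 to 706 ± 99. For fibroblast genes 2 of 18 tested members were apart and higher (Fbln1, Mgp), 7 apart and lower and 0 near (3, 5 and 0 with the trend removed). Of 15 markers of other organs 5 passed the filter, Apoa1 and Tnni2 only through the WNT5B libraries, and 5 were apart and higher as deposited and 3 with the trend removed. Apoa1, an apolipoprotein of liver, was at 20.4, 11.3 and 8.76 in WT and 996, 1145 and 950 in WNT5B libraries. Of the 15, 7 were listed at 0 in every WNT5B library. The part that such cells or a different dissection play in the other results was not tested.

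The lists of small, abundant housekeeping proteins were nearly all higher. Of cytosolic ribosomal protein genes 75 of 79 tested members were apart and higher, 1 apart and lower (Rps6) and 3 near (Rpl10, Rpl15, Rpl7a), and with the trend removed 68, 3 and 2. Their median was 3.19 as deposited, 1.96 with the trend removed, 2.61 with equal totals and 0.41 in HD libraries. They took 8.24 to 8.88 percent of all summed values in WNT5B, 1.41 to 1.44 percent in HD and 1.08 to 1.1 percent in WT libraries. Rpl36 measured 3375, 3033 and 3153 in WT, 4174 ± 18 in HD and 181680, 189500 and 184500 in WNT5B libraries (log2 difference 5.86, SE 0.05, limma adjusted p = 2.1e-08; 2.56 with the trend removed), and Rps27 rose from 5009 ± 165 to 170360 ± 5155. The exception was Rps6, which averaged 4981 in WT and 3086 in WNT5B libraries. Many of these genes have processed pseudogenes that can share their reads, so single values are uncertain. For mitochondrial ribosomal proteins 66 of 78 tested members were apart and higher, 7 apart and lower and 1 near (Mrpl3), or 59, 8 and 3 with the trend removed (median 1.91 and 1.47), and Mrpl12 rose from 2025 ± 49.1 to 21081 ± 514. For respiratory complex I 35 of 37 tested members were apart and higher, 1 apart and lower (Ndufs1) and 0 near (25, 5 and 1 with the trend removed). Ndufa2, an accessory subunit, measured 1913, 1842 and 1916 in WT, 2106 ± 33.8 in HD and 156140, 162700 and 138480 in WNT5B libraries (log2 difference 6.33, SE 0.07, limma adjusted p = 2.1e-08; 4.10 with the trend removed). For complexes II to V 30 of 37 tested members were apart and higher, 2 apart and lower (Atp5g2, Sdhd) and 2 near (Sdhc, Uqcrfs1), or 22, 4 and 4 with the trend removed, led by Atp5j2, an ATP synthase subunit, which rose from 3842 ± 19.3 to 96783 ± 3468. Of proteasome genes 31 of 36 tested members were apart and higher, 0 apart and lower and 0 near (30, 2 and 1 with the trend removed), and Psmb4, a core beta subunit, rose from 4249 ± 41.3 to 62231 ± 1163. WNT5B and WT libraries did not overlap for any of the genes given with values. Of all tested genes 80.2 percent did not overlap, and the genes given here, other than Rps6, were named for their small p.

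The lists of long genes went the other way. For clustered protocadherins, neuronal adhesion proteins built from variable and shared exons, 0 of 55 tested members were apart and higher, 37 apart and lower and 0 near (2, 28 and 0 with the trend removed, median -3.20 and -2.78, HD median 0.00). Values of members that share exons, such as Pcdha7 and Pcdhgc5, depend on how shared reads were divided, so the 37 are not all separate measurements. Pcdhgc5 measured 12754, 12364 and 12392 in WT, 8115 ± 138 in HD and 1411, 1253 and 875 in WNT5B libraries (log2 difference -3.43, SE 0.17, limma adjusted p = 5.2e-06), with 39.6 percent of its exon sequence common to other genes of the cluster. Of brain matrix and collagen genes 3 of 36 tested members were apart and higher (Cspg5, Hapln2, Sparc), 24 apart and lower and 1 near (Lamb2), or 2, 17 and 2 with the trend removed. Ncan, the chondroitin sulphate proteoglycan neurocan, measured 16342, 16117 and 16008 in WT, 6564 ± 81.2 in HD and 6006, 6056 and 5552 in WNT5B libraries, and so remained about as low as in HD. Sparc, a collagen-binding glycoprotein, instead rose from 12993 ± 163 to 29955 ± 2852 over an HD level of 21730 ± 174. For giant cytoskeletal and scaffold proteins 3 of 38 tested members were apart and higher (Ank3, Dync1h1, Map1b), 26 apart and lower and 3 near (Map1a, Plec, Sptbn4), and with the trend removed 6, 15 and 7, with a median of -1.31 that became -0.24. Sptbn1, a beta spectrin, fell from 64783 ± 453 to 15679 ± 1347 (log2 -2.05, and -0.90 with the trend removed). Plec, the cytoskeletal linker plectin, was near WT at 17765 ± 1073 against 18276 ± 741.

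Stress, lipid and cytoskeletal lists were mixed. Of heat shock and unfolded protein response genes 9 of 28 tested members were apart and higher, 8 apart and lower and 3 near (Hsp90b1, Hspa4, Hspa5), or 9, 7 and 2 with the trend removed (median -0.15 and 0.29). The cytosolic chaperone Hsp90aa1 measured 40803, 40250 and 40456 in WT, 34641 ± 98.9 in HD and 560560, 576740 and 409130 in WNT5B libraries (log2 difference 3.65, SE 0.13, limma adjusted p = 1.3e-06), while its paralogue Hsp90ab1 fell from 89228 ± 748 to 51453 ± 1173. For interferon response genes 4 of 30 tested members were apart and higher (Ifi27, Ifi35, Trim25, Xaf1), 12 apart and lower and 0 near (5, 9 and 0 with the trend removed). The lower members Gbp2 and Oas2, listed at 0 in all 3 WNT5B libraries, passed the filter only through the WT libraries. For complement and cytokine genes 5 of 22 tested members were apart and higher (C1qa, C1qb, C3, C3ar1, C4b), 5 apart and lower (among them C2, Cx3cl1, Cxcl12 and Il33) and 0 near, or 3, 6 and 1 with the trend removed (median 0.10 and -0.51). C2 was also at 0 in all 3 WNT5B libraries and passed the filter only through the WT libraries. Il33, an alarmin of oligodendrocytes and astrocytes, measured 5090.4, 5049.8 and 5239.8 in WT, 842 ± 39.9 in HD and 1143, 924 and 1201 in WNT5B libraries (log2 difference -2.24, SE 0.11, limma adjusted p = 4.6e-06), and Cxcl12, a chemokine of vessels and glia, 4554 ± 24.1, 1727 ± 53.6 and 1044 ± 139. Both remained low. Of circadian clock genes 6 of 21 tested members were apart and higher, 7 apart and lower and 2 near (Cry2, Csnk1d), or 6, 5 and 3 with the trend removed. Per1, a clock repressor also induced by glucocorticoids, measured 7941 ± 329 in WT, 20826 ± 246 in HD and 14186 ± 907 in WNT5B libraries, and Cry1, another repressor, 1561 ± 53.1, 2822 ± 110 and 7617 ± 414. Of cholesterol synthesis genes 6 of 23 tested members were apart and higher, 10 apart and lower and 4 near (among them Cyp51, Hmgcs1 and Insig1, each apart and higher with the trend removed), or 9, 10 and 2 with the trend removed. Fdft1, squalene synthase, rose from 3507 ± 65.9 to 21739 ± 1346 (log2 difference 2.63, SE 0.06, limma adjusted p = 1.5e-07). For neurofilaments, tubulins and actins 6 of 28 tested members were apart and higher, 9 apart and lower and 8 near (7, 10 and 5 with the trend removed). Tuba4a, an alpha-tubulin, measured 25559, 25424 and 24474 in WT, 12716 ± 75 in HD and 27096, 25580 and 28139 in WNT5B libraries and was near WT in both fits, with 37.3 percent of its exon sequence also annotated to another gene. Klc1, a kinesin light chain, was near WT at 24578, 25006 and 25503 against 24656, 25285 and 24376, with overlap between the groups and an HD level of 31735 ± 362. Tubb3, the neuronal beta-tubulin, fell from 13978 ± 339 to 1749.6 ± 68.1, and Actb, beta-actin, rose from 64505 ± 1581 to 434320 ± 31144. In the huntingtin and BDNF group 4 of 20 tested members were apart and higher (Crebbp, F8a, Hip1r, Msh3), 12 apart and lower and 1 near (Hap1), or 6, 9 and 3 with the trend removed. Hap1, a huntingtin-associated transport protein, was near WT at 6849, 5468 and 6926 against 6329, 6377 and 6130.1, while Hip1, a huntingtin-interacting endocytic protein, fell from 5227 ± 15.9 to 1539.5 ± 91.2.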

How the data were processed

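Of 9 mouse brain libraries of poly(A)-selected RNA, the 3 WNT5B and 3 WT libraries were compared. The signal values deposited by the authors give each protein-coding gene a decimal number per library. The steps between low values show them to be estimated reads scaled by 1 factor per library, without correction for gene length. STAR and mm10 are named in the submitters' processing notes. How reads were counted and normalized, and with which annotation and versions, is not given in the sources used here. The kit in the labels is unstranded, so overlapping genes on opposite strands cannot be separated. All 21853 identifiers matched GENCODE M21, the source of symbols, coordinates, transcript length and exon overlap. The value of 1 read, from the step between low values (97.7 to 98.5 percent of low values fall on it, tolerance 0.01), gave the read totals.

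The filter required a value of 10 or more in 3 or more of the 6 libraries, and log2(value + 3) was fitted with limma 3.58.1 in R 4.3.3, with a variance trend on the mean. The added 3 shrinks differences of low genes. Apart, near and the trend-removed fit (natural splines with 5 degrees of freedom on log2 length and GC content, per library against the WT mean) are defined in the report. HD against WT and WNT5B against HD were fitted the same way. The procedure was tested on simulated data. A count model was planned for values that give whole reads throughout; some lie between steps or far below 1 read, so none was run. Same-numbered WNT5B and WT libraries did not deviate together (correlations -0.0365, -0.0159 and -0.0404 over 13100 genes), so the numbers do not pair them. Members and gene lists were chosen with earlier results of these data known. The text names 5 study genes, the largest rises and falls, genes ended near, remained apart or crossed over by rule, and up to 4 apart and 2 near genes per list with the smallest p; some genes these rules name are not reported here. Symbols in brackets after counts, and Drd1, Drd2, Penk, Pdyn, Wnt5a, Bdnf, Aqp4, Kcnj10, Serpina3n, Tmem119, Csf1r and Rps6, were added outside those rules after their values were seen. Alternatives covered scale, filter, added constant, samples, spread per group, replicate block, single libraries and length. Lists of lymphocyte, thalamic and histone genes were read as well, with -0.61, 0.10 and -0.20 as median log2 differences.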

Additional observations from a re-analysis of the deposited data

How the results depend on the processing

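Counts of genes apart stayed within 1.5 times of 4615 higher and 5206 lower under every alternative run on all tested genes, from 3165 higher and 7311 lower with equal library totals to 5114 and 3740 with the trend removed. Leaving out 1 library gave 4355 to 4797 higher and 4531 to 5433 lower. Genes of 2000 to 5000 bases alone, an alternative chosen after seeing the data, gave 2421 higher and 2788 lower of 8576. The near count of 765 was the unstable one: 72 to 1053 when 1 library was left out, 1248 with all 9 libraries in the fit, 3087 with a 2-fold bound, 287 with the replicate block and 309 with the block and the trend removed. The replicate block gave 4468 higher and 5186 lower, and it kept 2 of the 10 genes that ended near, and 0 of them with the trend removed as well. The length trend of -2.78 became -1.66 with the median in place of the longest annotated transcript. Htt, at -0.45, reversed to 0.47 with the trend removed, with and without the replicate block. Among values of named genes under the alternatives, 3730 kept direction and call, 154 lost the call, 9 gained it and 2 reversed. All 8 largest rises and 8 largest falls kept their call under every alternative. They were chosen for the largest differences, so this says little about genes with smaller ones. Among these rises Agrp, Ccnb1ip1, S100a8, Retnlg and S100a9 passed the filter only through the WNT5B libraries. All 8 falls passed it only through the WT libraries. The cause of these shifts was not tested. The count test planned for whole reads was not run, because some values were not whole reads. Depth limits low genes: a single read is worth 1.61 to 2.14 in WNT5B libraries, and no gene with a mean under 100 was called near.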

Other observations

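Replication-dependent histone genes, which mostly lack poly(A) tails, were low in HD libraries, where 14 of 16 tested members were apart and lower than WT. In WNT5B libraries 3 of 17 tested members were apart and higher (Hist1h4d, Hist1h4h, Hist2h3c2), 6 apart and lower and 0 near against WT (2, 9 and 0 with the trend removed), with medians of -0.20 and -1.06, and -2.0 in HD libraries. Of all genes 34.5 percent were lower, with a median of -0.24. The summed value of the list was 8323 to 10240 in WNT5B, 3671 to 3773 in HD and 8163 to 8381 in WT libraries, and its share of all summed values 0.00994 to 0.0125 percent in WNT5B and 0.015 to 0.0153 percent in WT libraries. Hist2h3c1, a histone H3 gene that shares 100 percent of its exon bases with another gene, measured 360.3, 372 and 381 in WT, 52.2 ± 3.11 in HD and 191, 137 and 127 in WNT5B libraries. Hist1h2ac, a histone H2A gene, measured 143, 145 and 125, 65.2 ± 7.47 and 7.15, 6.42 and 17.2.

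Among markers of thalamic, midbrain and hindbrain neurons 4 of 9 tested members were apart and higher (Calb2, Ramp3, Rora, Tcf7l2), 2 apart and lower (Prkcd, Slc17a6) and 0 near (3, 1 and 0 with the trend removed). Tcf7l2, a transcription factor of thalamus and oligodendrocytes, measured 283, 306 and 309 in WT, 273 ± 7.38 in HD and 1123, 1312 and 963 in WNT5B libraries (log2 difference 1.90, SE 0.17, limma adjusted p = 8.5e-05). Rora, a nuclear receptor, measured 4386 ± 131, 6537 ± 69.5 and 6864 ± 650. Of 11 lymphocyte markers with values 7 were listed at 0 in every WNT5B library, and 2 passed the filter. Cd4, 1 of these, fell from 6914 ± 175 to 2488 ± 278. The summed value of the list was 6749 to 7056 in WT and 2254 to 2743 in WNT5B libraries, so it was nearly all Cd4.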
